A study of Homo sapiens with 6 samples.

Results

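Collagens, laminins and integrins are the building blocks of the extracellular matrix and the receptors that hold cells to it. Members were taken from the gene symbols alone, as every protein-coding gene named COL, a number, A and a number, every LAMA, LAMB or LAMC gene, and every ITGA or ITGB gene, without the integrin-binding proteins whose names begin with ITGB1BP or ITGB3BP. The rule gave 83 of the 60651 genes counted: 44 collagen genes, 12 laminin genes and 27 integrin genes, of which 18 are named as alpha and 9 as beta chains (*ITGBL1*, an integrin beta-like protein that is not a receptor subunit, fell under the rule). The data were ribosome-depleted total RNA sequencing libraries of a human neuroblastoma cell line, a tumour of the sympathetic nervous system grown in culture. There were 3 libraries labelled EtOH (ethanol, the solvent control) and 3 labelled Tet (tetracycline, given for 5 days), each holding counts of uniquely aligned reads per gene.

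The labels disagreed on the cells. The titles named the line IMR575 with EtOH or Tet, a tag headed knockdown read Control for the EtOH libraries and Induction for the Tet libraries, and the protocol described SK-N-SH cells with a tetracycline-repressor system that expresses *MYCN*, kept as single clones under G418 and blasticidin. The methods of the study name SK-N-AS cells in which *MYCN* can be switched on and IMR-5/75 cells in which an shRNA against it can be switched on. The paper describes IMR-5/75 as *MYCN*-amplified and SK-N-AS as lacking that amplification. By these texts both groups carry the same construct and selection and differ, by their titles, in tetracycline, and a clone stands for 1 outgrown cell. The methods state, for in vitro work in general, 3 biological replicates that were independent, and the labels do not say which cultures the 3 libraries of a group came from, so p-values measure the spread between these libraries. Groups were taken from the titles, and EtOH and Tet below mean the libraries labelled so.

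Collagens are triple helices of alpha chains. Fibril-forming types such as III and V build fibres, type IV builds the sheet of the basement membrane, and others sit along fibres or span the plasma membrane. Laminins are crosses of 1 alpha, 1 beta and 1 gamma chain that lay down the basement membrane on which neural crest cells and growing axons move. Integrins are pairs of 1 alpha and 1 beta chain that bind these proteins outside the cell and the actin cytoskeleton inside it. In neuroblastoma, matrix and integrin genes are best known from the mesenchymal cell state, and the adrenergic state is marked by transcription factors of sympathetic neurons.

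*MYCN*, the gene the system was built to regulate and hence the check of the labels, had 158, 256 and 156 CPM (counts scaled by 1e6 over the normalised library size) in EtOH and 197, 200.1 and 145 CPM in Tet (log2 fold change of Tet against EtOH -0.07 with SE 0.23, adjusted p = 0.956 in edgeR). The ranges overlapped, so each direction given here compares the labels and not a known level of MYCN. These are RNA levels. For the expression system the methods report a check of *MYCN* RNA by qRT-PCR and of MYCN protein by western blot. For the shRNA system they report a check of the protein by western blot. These libraries hold no protein measurement. Library totals lay between 27933378 and 40498065 counts, which puts 3 counts, taken as the floor of detection, at 0.0741 to 0.107 CPM, a limit for counting error only since reads carried no molecular identifiers. EtOH replicate 2 stood apart on the first principal component (44.7% of the variance, at 84.2 against -55.0 to 47.3 for the other 5 libraries) and in its share of counts from the mitochondrial genome (4.12% against 5.86 to 10.01%), so a number of values are also given without it. Tet replicate 2 came next after it on both measures, at 47.3 and 5.86%. The labels give no batch. The sympathetic factors *GATA3* (229 to 334 CPM) and *HAND2* (60.1 to 137 CPM) were high in every library, whereas *TH* and *DBH*, the enzymes of catecholamine synthesis, were at 0 to 0.0252 and 0 to 0.453 CPM. The mesenchymal genes *VIM*, *TWIST1* and *PRRX1* were also present (161 to 265, 43.3 to 107 and 33.6 to 136 CPM), and *FOSL1* and *TGFBI* were at or near 0.

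All 3 families were expressed, integrins most and collagens least. On the scale of TPM, in which counts are divided by the exon length of each gene and scaled to a fixed total, the summed level of the 27 integrin genes was 258 ± 30.1 in EtOH and 263 ± 41.7 in Tet, that of the 12 laminin genes 86.8 ± 5.69 and 70.9 ± 8.36, and that of the 44 collagen genes 49.2 ± 6.39 and 41.6 ± 1.61. A few genes carried each family. *ITGB1*, *ITGA4* and *ITGAV* took 75.8 to 81.8% of the integrin TPM, *LAMB1* and *LAMC1* took 87.1 to 93.6% of the laminin TPM, and the 4 highest collagen genes by mean TPM (*COL25A1*, *COL10A1*, *COL3A1* and *COL6A6*) took 45.4 to 61.7% of the collagen TPM. The order of the leading members was *ITGB1* (86.5 TPM over the 6 libraries), *ITGA4* (66.8), *ITGAV* (51.6), *LAMB1* (41.5), *LAMC1* (30.3) and *ITGA6* (19.3), with the highest collagen at 9.67 TPM. Each neighbouring pair in this order overlapped over the 6 libraries, as the plot of levels by member shows.

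**Figure D1:**
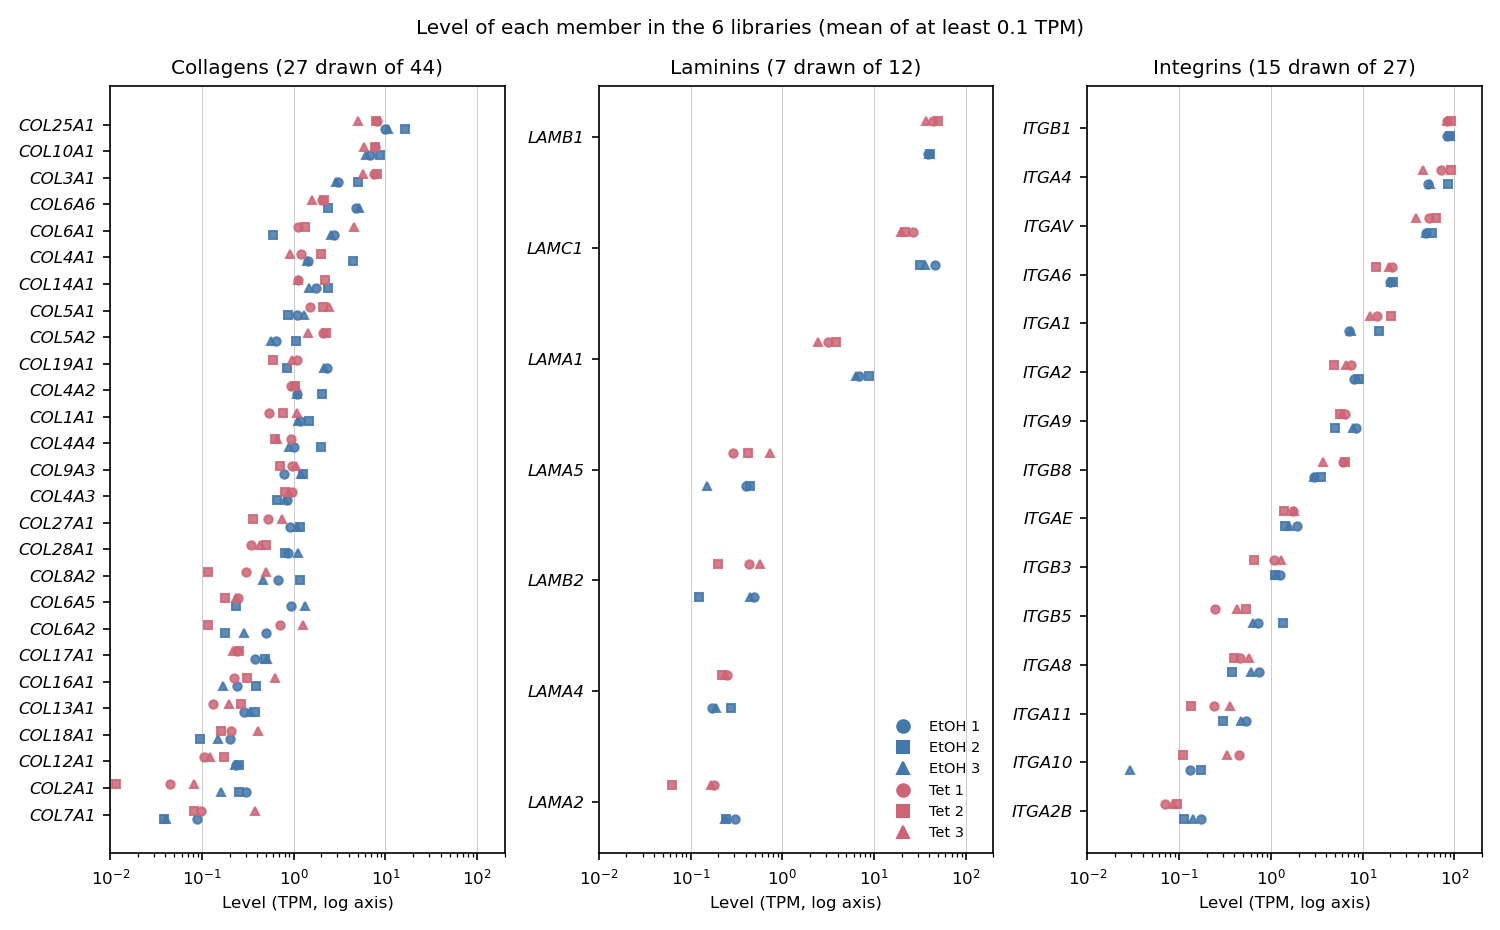
Level of each member in TPM (log axis) in the 6 libraries, 1 point per library, EtOH in blue and Tet in red, for 49 members with a mean of at least 0.1 TPM. Integrin genes reach 86.5 TPM on average and laminin genes 41.5 TPM, while no collagen gene passes a mean of 9.67 TPM.

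Of the 83 members, 52 passed the filter on low counts and were tested (28 collagens, 9 laminins and 15 integrins). Another 8 had no count in any library, and these were *COL1A2*, *COL5A3*, *LAMB3*, *LAMC3*, *ITGB6*, *ITGAD*, *ITGAM* and *ITGAX*. The last 3 are leukocyte integrins and *LAMB3* encodes a laminin chain of epithelia. The remaining 23 (14 collagens, *LAMB4* and 8 integrins) had means of 0.0106 to 0.243 CPM, near the floor. They included the alpha chain of the main fibronectin receptor, *ITGA5*, at 0 to 0.176 CPM, and *ITGA7* and *ITGB4*, both laminin receptor chains, at 0 to 0.284 and 0 to 0.377 CPM. *COL1A1*, the major chain of type I collagen, was detected at 3.91, 4.47 and 3.67 CPM in EtOH and 1.74, 2.51 and 4.001 CPM in Tet although its usual partner *COL1A2* had no count, which allows up to 0.107 CPM in the shallowest library.

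The question of the design was whether the families differed between Tet and EtOH. No member passed an adjusted p under 0.05 in edgeR's quasi-likelihood test with Benjamini-Hochberg adjustment over the 22443 genes tested, of which 53 (0.236%) did. At an unadjusted p under 0.05, 6 members (11.5% of the 52) were higher in Tet against 5.83% of all genes tested, and 10 members (19.2%) were lower against 4.94%. By a looser reading, that all 3 Tet values lay beyond all 3 EtOH values, 5 members were higher (9.62%, against 9.2% of all genes tested) and 14 were lower (26.9%, against 8.28%). These shares describe members that passed a filter on counts. Over the 39 members with a mean of at least 1 CPM, a cut that does not look at the groups, 5 were higher and 8 lower at an unadjusted p under 0.05, against 6.39% and 5.37% of the 16719 genes at that level. With other tools, limma-voom called no member, and DESeq2 called 4 of 54 members with an adjusted p (*COL3A1* and *COL5A2* higher, *COL6A5* and *LAMA1* lower), against 2.02% of its genes. Without EtOH replicate 2, edgeR called 8 members, against 2.89% of its genes.

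By family, the counts at an unadjusted p under 0.05 are read against the 5.83% higher and 4.94% lower of all genes tested. Among the 28 tested collagens, 4 were higher and 7 lower, with a median log2 fold change of -0.45 that became -0.0909 without EtOH replicate 2. Among the 9 laminins, none was higher and 2 were lower, with a median of 0.18 that became -0.16 without EtOH replicate 2, and -0.69 in all 6 libraries over the 5 laminins with a mean of at least 1 CPM. Among the 15 integrins, 2 were higher and 1 was lower, with a median of 0.05 that became -0.06 without that library. The median over all genes tested was -0.01. No test was made between the families, since their members were chosen with results of these data known.

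**Figure D2:**
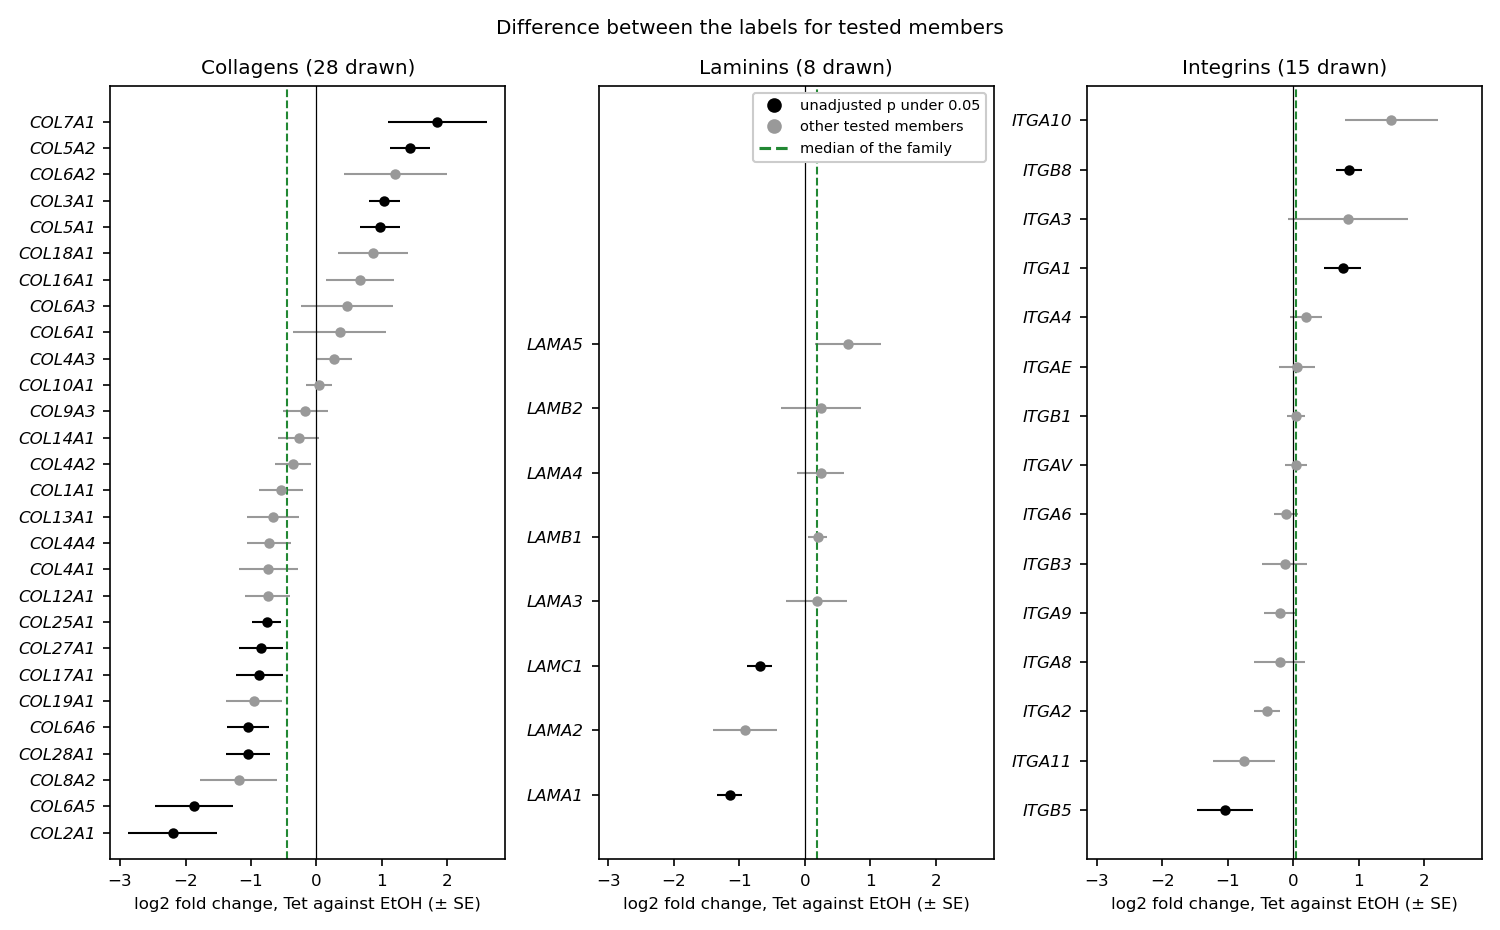
Log2 fold change of Tet against EtOH with its standard error for 51 of the 52 tested members, by family. Black points are the 16 members with an unadjusted p under 0.05 in edgeR (none has an adjusted p under 0.05), the vertical line is 0, and the dashed line is the median over all tested members of the family. Collagens spread from -2.20 to 1.85, laminins from -1.14 to 0.66, and most integrins sit close to 0.

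Of the 4 collagens higher in Tet at an unadjusted p under 0.05, 3 were fibril-forming, and *COL7A1* is described further on. *COL3A1* (ENSG00000168542.16, chromosome 2, 188974373 to 189012746, plus strand, in GRCh38 as the files give it), which encodes the single chain of type III collagen, had 7.70, 11.6 and 7.17 CPM in EtOH and 18.1, 20.1 and 15.9 CPM in Tet. *COL5A2* (ENSG00000204262.14, chromosome 2, 189031898 to 189225312, minus strand), a chain of the type V collagen that starts and limits the width of fibrils, had 1.73, 2.63 and 1.52 CPM in EtOH and 5.42, 6.12 and 4.30 CPM in Tet. *COL5A1* (ENSG00000130635.16, chromosome 9, 134641803 to 134844843, plus strand), the other main chain of type V, had 4.52, 3.25 and 5.32 CPM in EtOH and 5.88, 8.60 and 11.2 CPM in Tet. All 3 Tet libraries were above all 3 EtOH libraries for each of these genes, and EtOH replicate 2 was the highest EtOH library for *COL3A1* and *COL5A2* but the lowest for *COL5A1*. The fitted differences were 2.05-fold for *COL3A1* (log2 fold change 1.03 with SE 0.24, adjusted p = 0.143 in edgeR), 2.695-fold for *COL5A2* (log2 fold change 1.43 with SE 0.31, adjusted p = 0.121 in edgeR) and 1.96-fold for *COL5A1* (log2 fold change 0.97 with SE 0.31, adjusted p = 0.286 in edgeR). The first pair did not reach the threshold in edgeR on all 6 libraries but did under DESeq2, at adjusted p = 0.0242 and 0.00491, and without EtOH replicate 2, at 0.0147 and 0.0184, whereas *COL5A1* stayed short of it in both. *COL3A1* and *COL5A2* lie tail to tail on chromosome 2 with 19.2 kb between them.

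The other 3 tested fibrillar genes had negative log2 fold changes. *COL27A1*, a fibrillar collagen known from cartilage, had 4.69, 5.63 and 5.55 CPM in EtOH and 2.62, 1.83 and 4.33 CPM in Tet (log2 fold change -0.85 with SE 0.34, adjusted p = 0.416 in edgeR). *COL2A1*, the main collagen of cartilage, was near the floor, at 0.753, 0.577 and 0.397 CPM in EtOH and 0.106, 0.0282 and 0.226 CPM in Tet (log2 fold change -2.20 with SE 0.68, adjusted p = 0.275 in edgeR). Both sets of values were apart, with Tet below EtOH, but *COL2A1* had 27, 16 and 12 counts in EtOH and 3, 1 and 9 counts in Tet. *COL1A1*, given above, overlapped between groups (log2 fold change -0.54 with SE 0.34, adjusted p = 0.640 in edgeR). Of the 5 fibrillar genes that were not tested, *COL1A2* and *COL5A3* had no count, and *COL24A1*, *COL11A1* and *COL11A2* were near the floor, at means of 0.243, 0.0106 and 0.0873 CPM. Summed over the 11 fibrillar genes, the level was 7.20, 10.03 and 7.14 TPM in EtOH and 12.3, 13.7 and 11.8 TPM in Tet, and *COL3A1* made up the largest part of that sum.

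The promoter of *COL5A1* is printed because its start in RefSeq is the start of the gene in the files, so that the 250 bases lie wholly before it, and to set it beside that of *LAMC1*, a member that lay the other way. The bases are chr9:134641553-134641802 on the plus strand of GRCh38.p14, from RefSeq, and capitals mark GC boxes (GGGCGG, or CCGCCC on the other strand), of which there are 2 here and 3 in *LAMC1* (chr1:183023170-183023419, plus strand).
COL5A1: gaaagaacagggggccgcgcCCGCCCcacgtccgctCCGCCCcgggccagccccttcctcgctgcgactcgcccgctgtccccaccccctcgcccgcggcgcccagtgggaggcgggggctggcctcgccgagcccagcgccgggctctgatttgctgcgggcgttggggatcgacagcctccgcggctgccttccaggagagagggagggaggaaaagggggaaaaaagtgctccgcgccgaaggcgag
LAMC1: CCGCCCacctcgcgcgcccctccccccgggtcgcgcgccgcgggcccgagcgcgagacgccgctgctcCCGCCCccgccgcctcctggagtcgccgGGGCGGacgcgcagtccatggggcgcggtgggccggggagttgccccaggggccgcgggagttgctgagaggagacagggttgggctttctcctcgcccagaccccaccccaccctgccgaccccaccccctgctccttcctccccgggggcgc
Neither stretch holds the E-box CACGTG, to which MYC proteins bind, nor CCAAT or TATAAA on either strand. The GC content was 74.0% for *COL5A1* and 79.6% for *LAMC1*, with a median of 58.0% over all promoters of the table. Of the 83 members, 59 had an entry. On either strand, 32 of them (54.2%) held GGGCGG against 42.3% of all 27305 promoters, 13 (22.0%) held CCAAT against 33.0%, 6 (10.2%) held TATAAA against 11.1%, and 1 (1.69%, *ITGA6*) held CACGTG against 6.49%. No motif contains another, and a match or its absence in these 250 bases describes the letters only.

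Network-forming and basement membrane collagens did not separate between the labels. *COL10A1*, a short-chain collagen known from growth plates and the second highest collagen by TPM (7.17), had 9.68, 11.4 and 8.63 CPM in EtOH and 10.5, 10.8 and 9.29 CPM in Tet (log2 fold change 0.04 with SE 0.20, adjusted p = 0.972 in edgeR). *COL4A1* and *COL4A2*, the head-to-head gene pair for the common chains of type IV collagen, had 7.76, 22.0 and 7.57 CPM and 7.76, 13.1 and 7.74 CPM in EtOH, and 6.27, 10.7 and 5.46 CPM and 6.45, 7.39 and 8.46 CPM in Tet. EtOH replicate 2 alone was far above the rest for *COL4A1*, and the groups overlapped for both genes. Without that library the log2 fold changes of *COL4A1* and *COL4A2* were -0.03 and -0.05, against -0.73 and -0.36 with it. *COL4A3* and *COL4A4*, a head-to-head pair with 0.17 kb between them that encodes chains of specialised basement membranes, had opposite signs at log2 fold changes of 0.27 and -0.73 (0.14 and -0.34 without EtOH replicate 2), both with overlapping groups. *COL4A5* and *COL4A6* were near the floor.

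Collagen VI, which forms beaded filaments around cells, split by gene pair. *COL6A6* (ENSG00000206384.10, chromosome 3, 130560334 to 130678155, plus strand) had 17.2, 7.83 and 18.6 CPM in EtOH and 7.09, 7.67 and 6.39 CPM in Tet (log2 fold change -1.04 with SE 0.32, adjusted p = 0.271 in edgeR), and *COL6A5*, 75.5 kb before it on the same strand, had 3.32, 0.757 and 4.69 CPM in EtOH and 0.851, 0.621 and 0.931 CPM in Tet (log2 fold change -1.87 with SE 0.60, adjusted p = 0.292 in edgeR). EtOH replicate 2 sat with the Tet libraries for both genes, and the other 2 EtOH libraries were more than 2-fold above it. Without that library both genes were called lower, at log2 fold changes of -1.34 (edgeR adjusted p = 0.0105) and -2.31 (0.0123). The classical chains *COL6A1* and *COL6A2*, neighbours on chromosome 21, varied within groups instead. *COL6A1* had 5.38, 1.08 and 5.03 CPM in EtOH and 2.09, 2.57 and 10.02 CPM in Tet, with Tet replicate 3 over 2-fold above the other Tet libraries and EtOH replicate 2 under the other EtOH libraries by as much. *COL6A2* had 0.976, 0.325 and 0.562 CPM in EtOH and 1.35, 0.226 and 2.77 CPM in Tet, again with Tet replicate 3 highest. Their log2 fold changes of 0.35 and 1.21 (SE 0.71 and 0.78) were within this spread, and that of *COL6A1* took either sign as libraries were left out. The sum over the 5 type VI genes was 8.99, 3.48 and 9.43 TPM in EtOH and 4.20, 3.91 and 7.72 TPM in Tet, with overlap.

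Fibril-associated collagens, which decorate fibrils, were low. *COL12A1* had 1.65, 1.62 and 1.59 CPM in EtOH and 0.709, 1.21 and 0.956 CPM in Tet, apart but short of the unadjusted threshold (log2 fold change -0.75 with SE 0.34, adjusted p = 0.487 in edgeR). *COL19A1*, named because it was called lower when EtOH replicate 2 was left out (edgeR adjusted p = 0.0451), had 9.43, 3.14 and 8.60 CPM in EtOH and 4.25, 2.40 and 4.30 CPM in Tet. EtOH replicate 2 was the only EtOH library within the range of Tet for it. *COL14A1*, *COL16A1* and *COL9A3* overlapped between the labels, at log2 fold changes of -0.27, 0.66 and -0.17 (the first and last at -0.10 and -0.08 without EtOH replicate 2), and the other 5 genes of this class were not tested.

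All 3 tested transmembrane collagens lay lower in Tet with groups apart, as did 8.28% of all genes tested. The class is small and was drawn with results of these data known. *COL25A1* (ENSG00000188517.16, chromosome 4, 108808725 to 109302752, minus strand), a neuronal transmembrane collagen needed for the innervation of muscle and the highest collagen gene in these cells, had 32.4, 48.8 and 34.1 CPM in EtOH and 25.2, 25.1 and 17.8 CPM in Tet. Its groups were apart, 1.69-fold lower in Tet (log2 fold change -0.76 with SE 0.22, adjusted p = 0.250 in edgeR), and without EtOH replicate 2, its highest library, the log2 fold change was -0.55 (edgeR adjusted p = 0.142). *COL17A1*, the collagen of hemidesmosomes, had 0.976, 1.15 and 1.32 CPM in EtOH and 0.603, 0.649 and 0.629 CPM in Tet (log2 fold change -0.87 with SE 0.36, adjusted p = 0.429 in edgeR). *COL13A1*, which acts at the neuromuscular junction, had 1.06, 1.26 and 1.22 CPM in EtOH and 0.461, 0.959 and 0.805 CPM in Tet, also apart (log2 fold change -0.66 with SE 0.39, adjusted p = 0.618 in edgeR). The sum over the 4 transmembrane genes was 10.9, 17.5 and 11.5 TPM in EtOH and 8.49, 8.34 and 5.46 TPM in Tet, in large part from *COL25A1*.

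Of the remaining collagens, *COL28A1*, known from peripheral nerve, had 2.15, 1.80 and 2.71 CPM in EtOH and 0.815, 1.21 and 1.18 CPM in Tet, apart and 2.06-fold lower in Tet (log2 fold change -1.05 with SE 0.33, adjusted p = 0.292 in edgeR). *COL7A1*, the anchoring fibril collagen of skin, had 0.363, 0.144 and 0.165 CPM in EtOH and 0.390, 0.338 and 1.74 CPM in Tet (log2 fold change 1.85 with SE 0.76, adjusted p = 0.431 in edgeR). Its higher mean in Tet came from Tet replicate 3, and without that library the log2 fold change was 0.67. *COL18A1* and *COL8A2* overlapped between groups at 0.87 and -1.18.

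**Figure D3:**
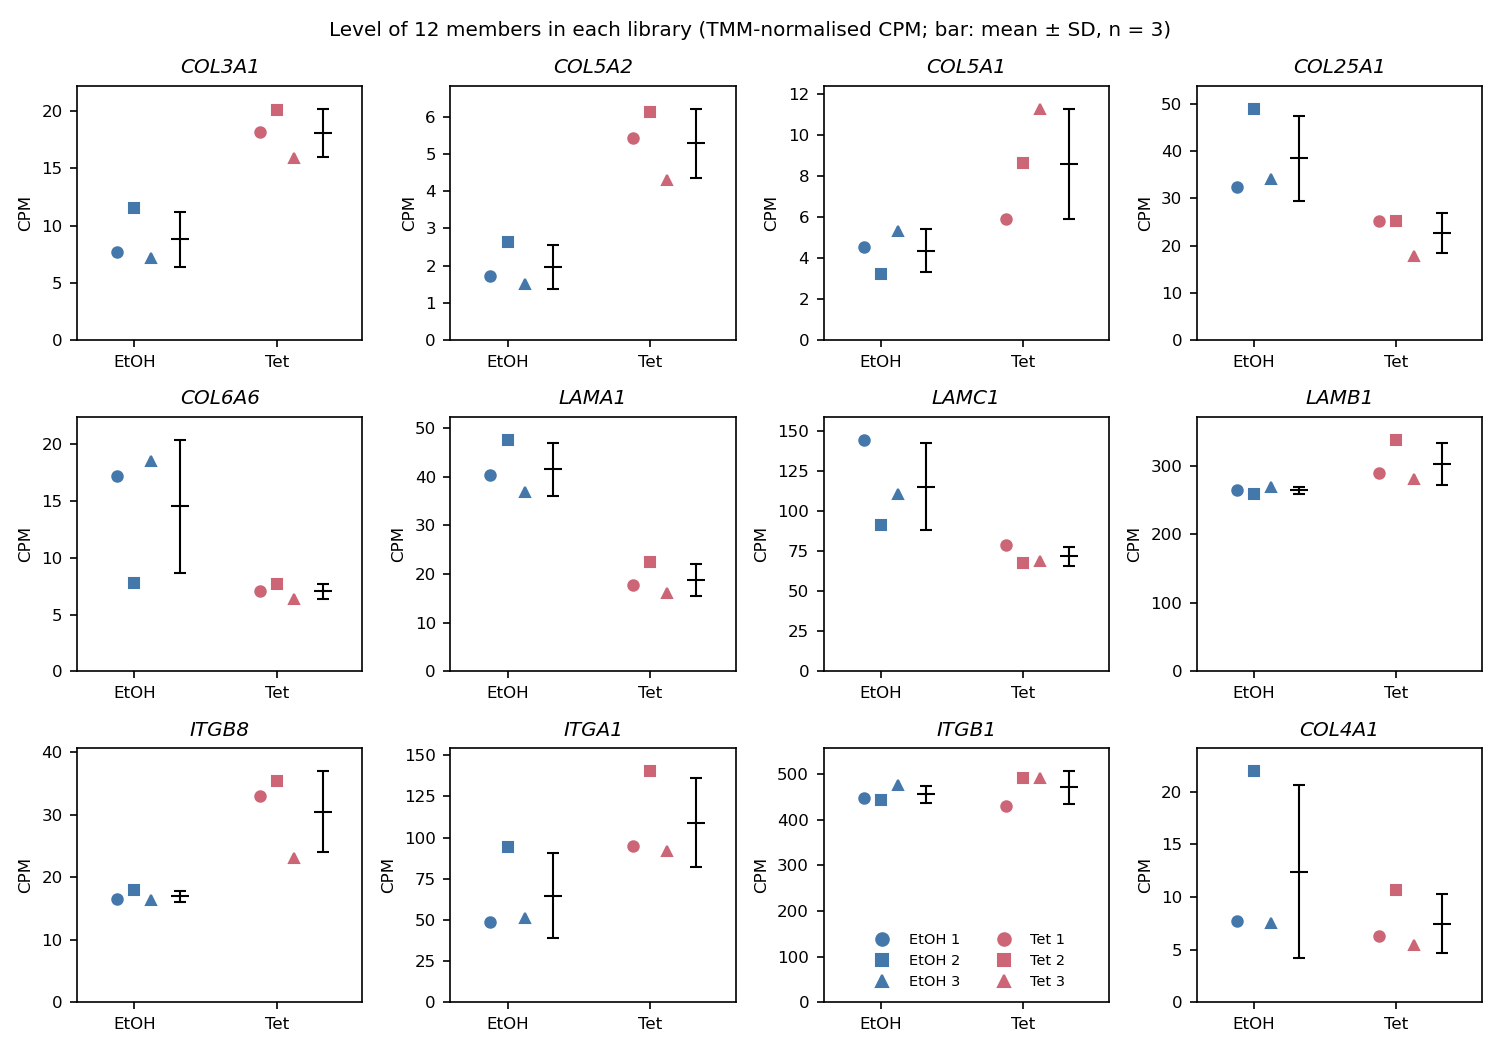
Level in CPM of 12 members in each library (linear axes from 0), EtOH in blue and Tet in red, with the mean and SD of each group beside the points (n = 3). *COL3A1*, *COL5A2*, *COL5A1* and *ITGB8* lie higher in all Tet libraries and *COL25A1*, *LAMA1* and *LAMC1* lower, while EtOH replicate 2 (blue square) sits with Tet for *COL6A6* and alone for *COL4A1*.

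Among laminins, *LAMA1* (ENSG00000101680.15, chromosome 18, 6941742 to 7117797, minus strand), the alpha chain of the laminin of early embryonic basement membranes, differed most clearly. It had 40.3, 47.5 and 36.8 CPM in EtOH and 17.8, 22.5 and 16.1 CPM in Tet. Every Tet library was below every EtOH library, and the difference was 2.21-fold lower (log2 fold change -1.14 with SE 0.19, adjusted p = 0.0635 in edgeR), the smallest adjusted p of any member. Its adjusted p was 0.000886 under DESeq2, 0.0679 under limma-voom and 0.0200 without EtOH replicate 2. Exon bases shared with an antisense RNA made up 10.3% of the gene, and counting ignored strand, but that RNA itself was at 0.221 CPM on average.

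*LAMC1* (ENSG00000135862.6, chromosome 1, 183023420 to 183145592, plus strand), the gamma chain found in most laminins, had 145, 91.4 and 111 CPM in EtOH and 78.8, 67.8 and 68.9 CPM in Tet. The groups were apart, with EtOH replicate 2 the lowest of its group, and the fitted difference was 1.61-fold lower in Tet (log2 fold change -0.69 with SE 0.19, adjusted p = 0.224 in edgeR, and 0.0262 without EtOH replicate 2). *LAMB1* (ENSG00000091136.15, chromosome 7, 107923799 to 108003213, minus strand), the beta chain that pairs with both *LAMA1* and *LAMC1* products and the highest laminin gene, had 265, 259 and 269.7 CPM in EtOH and 289, 338 and 281 CPM in Tet. It was slightly higher in all Tet libraries, by 1.14-fold (log2 fold change 0.19 with SE 0.14, adjusted p = 0.703 in edgeR), so that the 3 chains of this laminin did not lie the same way.

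The other laminins were low. *LAMA2*, the alpha chain of muscle and peripheral nerve, had 1.17, 0.866 and 0.926 CPM in EtOH and 0.638, 0.226 and 0.705 CPM in Tet, apart but at an unadjusted p of 0.0960 in edgeR. *LAMA5* had 2.12, 2.16 and 0.793 CPM in EtOH and 1.49, 2.26 and 4.25 CPM in Tet, *LAMA4* 0.753, 1.12 and 0.826 CPM and 1.06, 0.959 and 1.16 CPM, and *LAMB2* 1.26, 0.289 and 1.12 CPM and 1.06, 0.508 and 1.61 CPM, all with overlap. *LAMA3* was at 0.31 to 0.68 CPM. The summed laminin alpha level was 7.81, 9.92 and 6.97 TPM in EtOH and 3.97, 4.63 and 3.72 TPM in Tet, and the beta level 38.9, 41.3 and 39.9 TPM and 44.3, 49.7 and 37.4 TPM.

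Ratios of TPM within a library, which do not depend on how libraries were scaled to each other, were computed for 9 pairs of chains that assemble or sit together. In 4 pairs the groups were apart, and these pairs were picked with the values of their members in view, so they carry no test. *LAMA1* over *LAMB1* was 0.179, 0.216 and 0.160 in EtOH and 0.0720, 0.0781 and 0.0674 in Tet, and *LAMC1* over *LAMB1* was 1.20, 0.778 and 0.905 in EtOH and 0.600, 0.442 and 0.541 in Tet. *COL3A1* over *COL5A2* was 4.90 ± 0.186 (SD, n = 3) in EtOH and 3.73 ± 0.241 in Tet. *ITGB8* over *ITGAV* was 0.0602 ± 0.000744 in EtOH and 0.105 ± 0.00976 in Tet, and among the pairs that overlapped, *ITGB1* over *ITGA4* was 1.43 ± 0.325 and 1.32 ± 0.441. In the plot of ratios the EtOH and Tet points keep apart in every panel, with the closest values for *ITGB8* over *ITGAV* in EtOH.

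**Figure D4:**
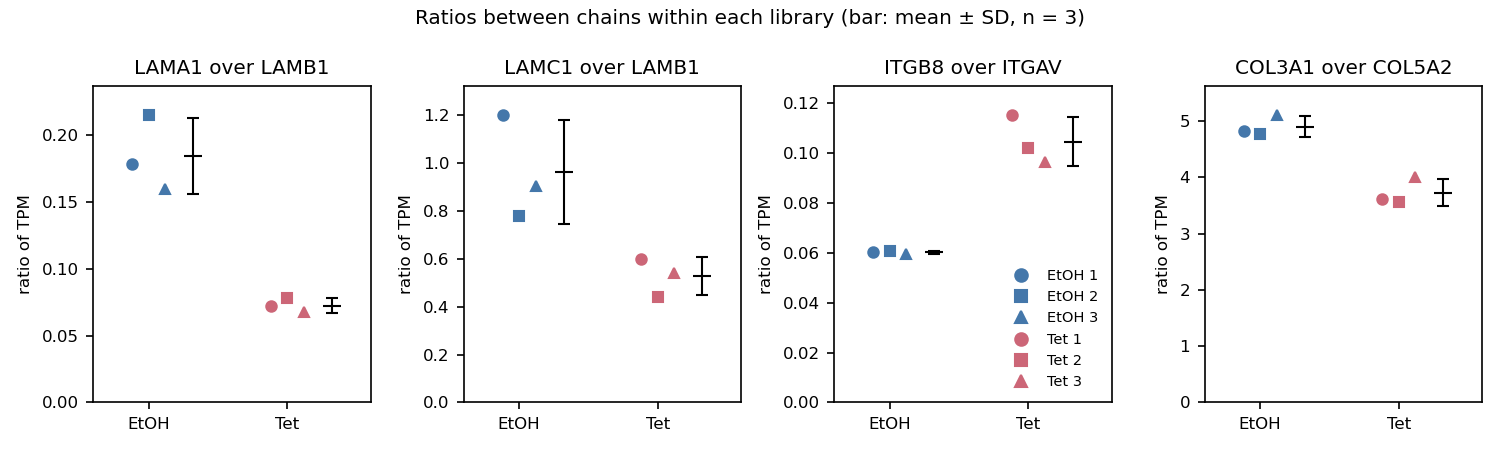
Ratio of TPM between 2 chains within each library (linear axes from 0), 1 point per library, with mean and SD of each group (n = 3), for the 4 of 9 pairs whose groups do not overlap. *LAMA1* over *LAMB1* has a mean of 0.185 in EtOH and 0.0725 in Tet, and *ITGB8* over *ITGAV* of 0.0602 and 0.105.

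Integrin beta chains were led by *ITGB1*, the common partner of most alpha chains in these cells. It had 447, 443 and 476 CPM in EtOH and 429.7, 492 and 491 CPM in Tet, with no separation (log2 fold change 0.05 with SE 0.14, adjusted p = 0.951 in edgeR). *ITGB8* (ENSG00000105855.10, chromosome 7, 20330702 to 20415754, plus strand), which pairs with the alpha V chain and activates latent TGF-beta, had 16.5, 18.0 and 16.3 CPM in EtOH and 32.9, 35.4 and 23.2 CPM in Tet. The EtOH libraries lay close together, all Tet libraries were above them, and the difference was 1.80-fold (log2 fold change 0.85 with SE 0.20, adjusted p = 0.154 in edgeR), with adjusted p = 0.0547 under DESeq2 and 0.0532 without EtOH replicate 2. *ITGB5*, another partner of alpha V, was low and lay the other way, at 1.73, 2.96 and 1.52 CPM in EtOH and 0.567, 1.27 and 1.13 CPM in Tet (log2 fold change -1.05 with SE 0.43, adjusted p = 0.426 in edgeR, with a log2 fold change of -0.70 without EtOH replicate 2, its highest library). *ITGB3*, the third alpha V partner that was tested, had 2.96, 2.38 and 2.64 CPM in EtOH and 2.41, 1.52 and 3.37 CPM in Tet (log2 fold change -0.13 with SE 0.34, adjusted p = 0.947 in edgeR). A share of 35.7% of its exon bases belongs also to a readthrough gene on the same strand, which leaves its counts uncertain.

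Among alpha chains, the fibronectin and VCAM receptor *ITGA4* had 205, 307 and 213 CPM in EtOH and 273, 361 and 197 CPM in Tet (log2 fold change 0.20 with SE 0.25, adjusted p = 0.857 in edgeR), and 14.8% of its exon bases overlap *CERKL* on the other strand, which was at 230.5 CPM, so that part of the count of either gene cannot be told apart. *ITGAV*, an alpha chain of RGD-binding receptors, had 149, 160.1 and 149 CPM in EtOH and 155, 188 and 130.1 CPM in Tet (log2 fold change 0.05 with SE 0.17, adjusted p = 0.963 in edgeR). *ITGA6*, the main laminin receptor chain here, had 49.8, 48.8 and 49.8 CPM in EtOH and 50.3, 34.2 and 52.9 CPM in Tet (log2 fold change -0.11 with SE 0.19, adjusted p = 0.900 in edgeR), and its neighbours in function *ITGA3* and *ITGA7* were near the floor. None of the 3 separated, and for each of them leaving out Tet replicate 2 turned the sign of the difference.

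The collagen-binding alpha chains lay in both directions. *ITGA1* (ENSG00000213949.10, chromosome 5, 52787916 to 52959209, plus strand) had 48.5, 94.4 and 51.4 CPM in EtOH and 95.1, 140.3 and 91.96 CPM in Tet. EtOH replicate 2 reached the lower Tet values, so the groups overlapped (log2 fold change 0.75 with SE 0.29, adjusted p = 0.392 in edgeR), and without it the log2 fold change was 1.13 (edgeR adjusted p = 0.0226). Of its exon bases, 13.2% are shared with other genes, the most with *ITGA2-AS1* on the other strand (7.47%), which was at 6.95 CPM. *ITGA2*, 30.1 kb beyond it on the same strand, had 23.8, 24.6 and 25.4 CPM in EtOH and 20.9, 14.1 and 21.1 CPM in Tet, apart in the lower direction but short of the unadjusted threshold (log2 fold change -0.39 with SE 0.20, adjusted p = 0.536 in edgeR). *ITGA11* and *ITGA10*, both low, had log2 fold changes of -0.75 and 1.5 with overlapping groups. *ITGA9*, a tenascin receptor chain, had 21.4 ± 6.44 CPM in EtOH and 18.7 ± 1.54 CPM in Tet (SD, n = 3), and *ITGA8* and *ITGAE* had log2 fold changes of -0.21 and 0.06, all with overlap.

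Seen as sums, the families lay apart for collagens and laminins and not for integrins. The summed collagen level was 45.6, 56.6 and 45.5 TPM in EtOH and 41.3, 43.3 and 40.1 TPM in Tet, and the summed laminin level 93.3, 83.8 and 83.2 TPM in EtOH and 75.0, 76.5 and 61.3 TPM in Tet. The Tet libraries were below the EtOH libraries in both, by a mean of 49.2 against 41.6 and of 86.8 against 70.9 TPM. The log2 ratio of the collagen sums was -0.24, and -0.13 without EtOH replicate 2, the highest library, while that of the laminin sums was -0.29 and -0.32. On the CPM scale, which weighs long genes more, the laminin sums overlapped, at 457, 404 and 423 CPM in EtOH and 392, 433 and 375 CPM in Tet. The summed integrin level was 236, 292 and 245 TPM in EtOH and 269, 301 and 219 TPM in Tet, with overlap. In a bulk sample, fewer cells that express a gene and less RNA per cell cannot be told apart. Tested members had a median exon length of 9159 bases against 5447 for all protein-coding genes tested.

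**Figure D5:**
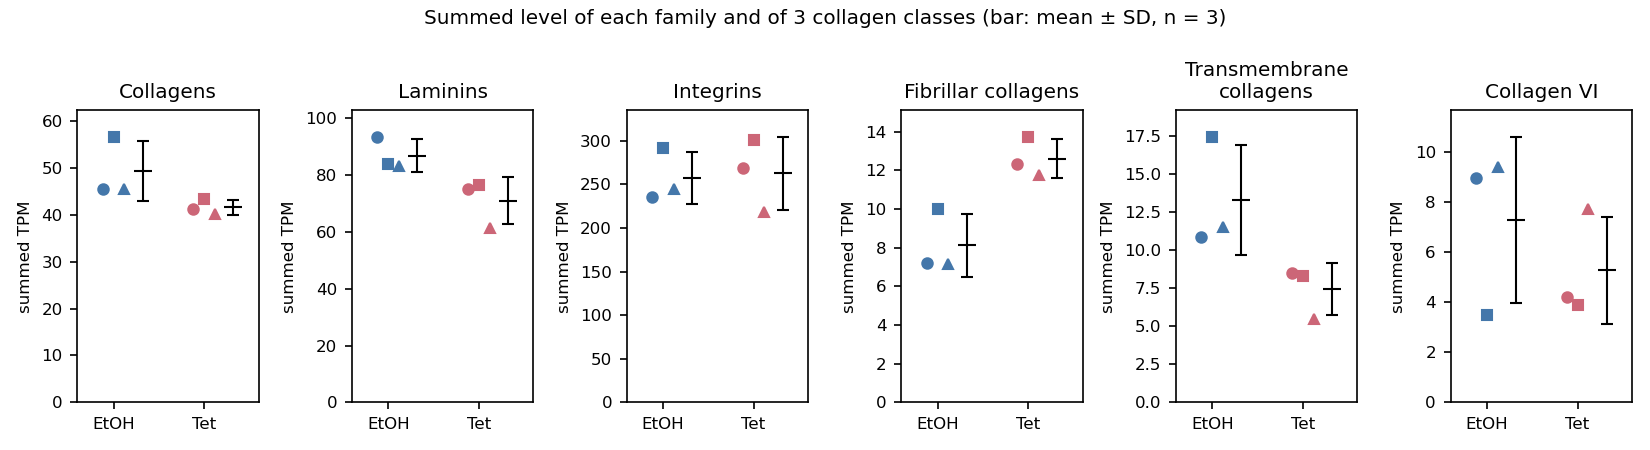
Summed TPM of each family and of 3 classes of collagen in each library (linear axes from 0; circle, square and triangle are replicates 1, 2 and 3; EtOH in blue, Tet in red), with mean and SD of each group (n = 3). Collagens and laminins sum lower in every Tet library, fibrillar collagens higher and transmembrane collagens lower, and integrins and collagen VI overlap.

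Genes that make, bind or cleave the same proteins were read from 5 lists, and none of their tested genes passed an adjusted p under 0.05 in edgeR. Their counts at an unadjusted p under 0.05 stand beside the same 5.83% higher and 4.94% lower of all genes tested. Of 30 tested genes of collagen processing, 3 were higher (10% of the list) and 3 lower (10%), with a median log2 fold change of -0.11. *SERPINH1*, the collagen chaperone HSP47, had 1.42, 1.33 and 0.893 CPM in EtOH and 1.52, 3.47 and 3.93 CPM in Tet (log2 fold change 1.29 with SE 0.42, adjusted p = 0.296 in edgeR), and *LOX*, which cross-links collagen, had 63.8, 128 and 63.1 CPM and 45.6, 58.0 and 33.5 CPM (log2 fold change -0.89 with SE 0.31, adjusted p = 0.350 in edgeR, and a log2 fold change of -0.47 without EtOH replicate 2). The other 4 were *P3H4* and *ADAMTS2*, both higher and under 2 CPM in every library, and *CRTAP* and *COLGALT2*, both lower at log2 fold changes of -0.50 and -0.67. *MIA3*, which exports procollagen and had the highest CPM of the list, lay at -0.09.

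Of 16 tested matrix partners, 1 was higher (6.25%) and 3 were lower (18.8%), with a median of -0.20. *NID1*, the nidogen that joins laminin to type IV collagen, had 30.2, 36.4 and 30.2 CPM in EtOH and 16.6, 15.0 and 15.7 CPM in Tet (log2 fold change -1.03 with SE 0.16, adjusted p = 0.0584 in edgeR). Its groups were far apart and its difference was close in size to that of *LAMA1*. *FBN1* and *FBN2*, the microfibril proteins, lay lower at -0.92 and -0.70 (the latter at -0.37 without EtOH replicate 2), and *TNC*, a tenascin of migrating neural crest, lay higher at 1.04. *FN1*, the fibronectin gene, had 52.0, 62.5 and 46.4 CPM in EtOH and 56.0, 70.0 and 57.1 CPM in Tet (log2 fold change 0.19 with SE 0.17, adjusted p = 0.784 in edgeR).

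Of 10 tested matrix proteases and inhibitors, 2 were higher (20%) and none lower (median 0.01). *TIMP2*, an inhibitor of metalloproteinases, had 49.9, 44.6 and 50.7 CPM in EtOH and 83.3, 91.5 and 86.2 CPM in Tet (log2 fold change 0.85 with SE 0.14, adjusted p = 0.0635 in edgeR), and *MMP24* lay at 1.25. *MMP16*, a membrane metalloproteinase and the highest of this list, did not separate (282, 426 and 299 CPM and 275, 366 and 244 CPM). Of 13 tested other matrix receptors, 2 were higher (15.4%) and 1 was lower (7.69%; median 0.14). These were *CD47*, an integrin-associated protein, at 0.56, *SGCB*, a sarcoglycan, at 0.39, and the syndecan *SDC1* at -1.22, while the collagen receptor kinase *DDR2*, the highest of the list, overlapped between groups (485 ± 49.1 CPM in EtOH and 614 ± 224 CPM in Tet). Of 25 tested integrin adaptors, 2 were higher (8%) and 1 was lower (4%; median -0.04). The actin-binding partner *PARVA* lay at 0.50, filamin *FLNA* at 1.14 and vinculin *VCL* at -0.41, and *FLNA* was high in Tet replicate 3 alone (27.9 CPM against 5.86 to 9.20 CPM in the other 5 libraries). *PTK2*, the focal adhesion kinase and the highest adaptor, lay at 0.03.

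Markers of cell states and of other cell types were read from 6 lists. The 8 fibroblast markers summed to 98.2 to 103.5 CPM in EtOH and 46.7 to 56.8 CPM in Tet. Nearly all of this was *PDGFRA* (98.7, 96.3 and 94.5 CPM in EtOH, 49.4, 54.0 and 44.3 CPM in Tet), which was lower in Tet (log2 fold change -0.97 with SE 0.14, adjusted p = 0.0464 in edgeR). Of all genes tested, 0.236% had an adjusted p under 0.05 in either direction. A share of 16.1% of the exon bases of *PDGFRA* belongs also to other genes, and counting ignored strand. All 4 tested markers had negative log2 fold changes (median -0.90). *LUM* had 2.96, 2.60 and 2.51 CPM in EtOH and 2.52, 1.61 and 1.61 CPM in Tet, *THY1* 0.530, 0.433 and 0.661 CPM and 0.319, 0.310 and 0.201 CPM, the latter apart, and *PDGFRB* 1.06, 0.685 and 0.496 CPM and 0.284, 0.592 and 0.377 CPM, and none of these 3 had an unadjusted p under 0.05 in edgeR. Of the 4 untested, *TCF21* and *PDPN* had no count in any library, and *DCN* and *FAP* were at no more than 0.151 and 0.0709 CPM. Of the 8 tested noradrenergic markers (10 listed), 5 (62.5%) were higher at an unadjusted p under 0.05 and none lower. The shares over all genes tested were 5.83% and 4.94%. Without EtOH replicate 2, 5 were higher and 1 was lower (*HAND2*), against 10.7% and 9.87% of its genes. The list summed to 561 to 665 CPM in EtOH and 666 to 790.2 CPM in Tet. *ISL1* was at 41.3, 65.6 and 40.9 CPM in EtOH and 109.7, 144 and 79.8 CPM in Tet. Of the 8 tested mesenchymal markers (10 listed), 1 (12.5%) was higher and 2 (25%) were lower at an unadjusted p under 0.05. Without EtOH replicate 2, 2 were higher and 1 was lower. In all 6 libraries 3 log2 fold changes were above 0 and 5 below it (median -0.27). The list summed to 290.2 to 525 CPM in EtOH and 271 to 419.8 CPM in Tet. *PRRX1* was at 59.5, 136 and 62.5 CPM in EtOH and 33.6, 55.5 and 38.5 CPM in Tet. Its log2 fold change was -1.02, and -0.51 without EtOH replicate 2. *TWIST1* lay the other way, at 0.59, and 0.82 without that library, with overlapping groups in all 6 libraries. The part of these differences in the results on collagens and laminins was not tested. The Schwann cell, endothelial and leukocyte lists summed to at most 5.59, 0.753 and 1.20 CPM in any library, with *S100B*, *VWF*, *CD3E* and *TYROBP* at 0.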

How the data were processed

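The values used were the authors' deposited per-gene estimated counts, 1 file per library and not scaled: counts of unique alignments in which reads shared by several genes were split into fractions, so 12.3 to 14.7% of genes held a value that is not whole. Per the submitters' processing notes, reads were aligned with STAR 2.7.1a to GRCh38 and counted with featureCounts 1.5.1. The file headers name featureCounts 1.6.4, with fractional counting of overlapping genes and without strand, so antisense and overlapping genes share reads. Values were rounded to whole numbers for the tests (the plan had assumed whole counts). Symbols came from the reference annotation for 60437 of 60651 identifiers.

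Tet was compared with EtOH in edgeR 4.0.16 (R 4.3.3) by the quasi-likelihood F test on all 6 libraries without covariates, after filterByExpr and TMM scaling, with Benjamini-Hochberg adjustment over all genes tested and a threshold of 0.05. CPM are TMM-normalised, TPM use the deposited exon lengths, errors are SD over 3 libraries, and the SE is the log2 fold change divided by the square root of F. The fit was tested on simulated data. The 12 alternatives were DESeq2 size factors in edgeR, no filter, at least 10 counts in every library of 1 group, DESeq2 1.42.0, limma-voom (limma 3.58.1), a replicate block, and leaving out each library, with CPM in place of TPM for the sums. Named were members with an adjusted or unadjusted p under 0.05, those with a mean of at least 1 CPM whose groups do not overlap, the 4 highest by TPM of each family (integrin alpha and beta apart), *MYCN*, and list genes with an unadjusted p under 0.05 or the highest level. Other members are named to account for the rest (1 member and 1 marker are not reported here), and pairs of chains after their values were seen. Members, roles, lists and tests were chosen with earlier results of these data known. Labels number the replicates alike in both groups but tie the numbers to nothing. Correlations between the libraries could not decide whether the numbers pair them. The main comparison therefore has no pairing, and the replicate block is given as an alternative. One processing gene, *CTAGE5*, was not found under that symbol and is not analysed here. Promoters were read from RefSeq (GRCh38.p14).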

Additional observations from a re-analysis of the deposited data

How the results depend on the processing

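In edgeR no member was called at an adjusted p under 0.05 (0 higher, 0 lower), and RLE size factors, the stricter count minimum and limma-voom also called 0. Without a filter 1 was higher (*COL5A2*) and 1 lower (*LAMA1*), against 0.746% of all genes in that fit. DESeq2 called 2 and 2, against 2.02% of its genes. Leaving out 1 library gave 0 to 3 higher and 0 to 5 lower, with all calls from the fit without EtOH replicate 2 (*COL3A1*, *COL5A2* and *ITGA1* higher, *COL6A5*, *COL6A6*, *COL19A1*, *LAMA1* and *LAMC1* lower). For replicate numbers 1, 2 and 3 the correlations of deviations between EtOH and Tet were 0.0603, 0.510 and 0.219, all above 0. Only number 2 correlated best with itself in both directions. EtOH replicate 3 was closest to Tet replicate 3 (0.219), but Tet replicate 3 was closer to EtOH replicate 1 (0.379). With 3 libraries per group, these values cannot decide whether the replicate numbers pair the libraries. With the number as a replicate block, 4 members were higher (*COL3A1*, *COL5A2*, *ITGA1*, *ITGB8*) and 3 lower (*COL25A1*, *LAMA1*, *LAMC1*). Of list genes other than cell markers, 2 were higher and 3 lower. The block called 3.01% of all genes tested, against 0.236% in the main comparison, and the reason for this rise was not tested. Of list genes other than cell markers, 0 were called in the main comparison, and 1 higher (*TIMP2*) and 1 lower (*NID1*) without a filter or under DESeq2. When a library was left out, 0 to 2 of them were higher and 0 to 1 lower, all from the fit without EtOH replicate 2. Cell markers were not part of these counts. Among them, *PDGFRA* was called lower in the main comparison (adjusted p = 0.0464 in edgeR). The 16 members with an unadjusted p under 0.05 had 1 direction in all 12 alternatives, as did 40 of the 52 tested. The alternatives refit the same libraries or leave 1 out, and the 16 were picked by their p in them. A kept direction was therefore likely beforehand and is no separate evidence.

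The collagen median of -0.45 was -0.23 without a filter, -0.60 with the count minimum, -0.27 under DESeq2 and -0.546 to -0.0909 when a library was left out (the latter without EtOH replicate 2). The laminin median of 0.18 was -0.26 both without a filter and under DESeq2, and -0.20 to 0.17 when a library was left out, below 0 without EtOH replicate 2 or Tet replicate 3. The integrin median was -0.11 with the count minimum. The log2 ratio of summed laminin levels was -0.29 in TPM and -0.10 in CPM. *MYCN* was at -0.22 to 0.21 when a library was left out, above 0 without EtOH replicate 2 (0.21) or Tet replicate 3 (0.07). When 1 library was left out, *COL10A1* took -0.0688 to 0.162 (below 0 without EtOH replicate 3), *ITGA4* -0.0396 to 0.413, *ITGA6* -0.224 to 0.0624, *ITGAV* -0.0984 to 0.173 and *ITGB3* -0.437 to 0.123, the last 4 turning without Tet replicate 2. The cause was not tested. Of the 31 members that the filter removed, 8 had no count. The other 23 were tested without the filter, and 0 had an adjusted p under 0.05 in edgeR (smallest 0.289). At an unadjusted p under 0.05, 2 were higher and 0 lower (*COL11A2* and *ITGB4*, named after their values were seen). Of all genes in that fit, 8.36% had an unadjusted p under 0.05 in either direction.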
